A study of Rattus norvegicus with 15 samples.

Results

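The unexposed control group of a study of cultured rat brain microvascular endothelial cells (BMECs) consisted of 3 of its 15 RNA sequencing libraries, chosen by their labels as Control 1 to Control 3. Expression was given as FPKM, fragments per kilobase of transcript scaled to the mapped total of the library, and was summed over the transcripts of each of 28906 gene names. Genes were then ranked by the mean FPKM of the 3 libraries. Of all names, 9626 had a mean of at least 1 FPKM, 4104 of at least 10, 526 of at least 100 and 28 of at least 1000. A total of 12458 names were listed at 0 in all 3 control libraries, and 13436 were above 0 in all 3.

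Primary cells were dispersed from the cerebral cortex of littermate Sprague Dawley rats of both sexes and grown to 60% confluence, after other cell types had been reduced by differential adhesion. Control cells received every step except the x-rays and were cultured for 12 h. The exposed groups had 3 libraries each and were collected 12 h or 24 h after a single x-ray dose of 5 Gy or 20 Gy. No untreated group was labelled as cultured for 24 h, so that x-ray exposure and culture time cannot be told apart in the comparisons at 24 h. The study calls the libraries biological replicates, but the labels do not tie them to animals, and p-values measure the spread between these libraries.

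Capillary endothelial cells of the brain line the vessel wall and form the blood-brain barrier. They are joined by tight junctions that contain claudin 5, they express VE-cadherin (Cdh5), von Willebrand factor (Vwf) and VEGF receptors, and they carry glucose through the transporter Slc2a1. Pericytes and fibroblast-like cells lie on the outer side of the same vessels, and cultures of brain vessels may contain them. In growing cells of any type, messenger RNA for ribosomal proteins, translation factors, the cytoskeleton and the respiratory chain is abundant.

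Sequencing depth was recovered from FPKM values of short single-exon transcripts, which were whole numbers of aligned bases after scaling in 84.2% to 85.3% of cases in the control group, within 0.05 base. The control libraries held 6.23 to 6.73 gigabases of aligned sequence, and all 15 libraries held 5.44 to 7.49 gigabases. At this depth, 1 FPKM on a transcript of 1000 bases corresponded to 41.6 to 44.9 reads of 150 bases in the control group. Named transcripts took 69.7% ± 1.15 (SD, n = 3) of the summed FPKM, and transcripts without a gene name took the rest. Because many unnamed transcripts lay in a locus with a single gene name, a second sum per locus was made, in which they were given to that name. A gene listed at 0 by name can therefore still be expressed.

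The most abundant gene was Mt-co1 (MT:5323-6867, plus strand, Rnor_6.0), the mitochondrial gene of a catalytic subunit of cytochrome c oxidase, with 6778, 6368 and 7553 FPKM in Control 1, 2 and 3. Fth1 (chr1:226030938-226033228), the heavy chain of the iron store ferritin, had 4093, 4603 and 5672 FPKM. Eef1a1 (chr8:85838869-85840818), which brings aminoacyl-tRNA to the ribosome, had 4235, 4665 and 4788 FPKM. These were the 3 genes with the highest means, and Control 3 was highest for each of them. Mt-co2, another cytochrome c oxidase subunit, averaged 4526 ± 564 FPKM (SD, n = 3). Actb, cytoplasmic beta-actin, averaged 3585 ± 359 FPKM.

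Single genes took a small share of the total. Mt-co1 alone held 1.51% ± 0.0871 (SD, n = 3) of the summed FPKM, the 10 most abundant genes 7.45% ± 0.631 and the 100 most abundant 23.2% ± 1.09. The 1000 most abundant genes held 48.7% ± 1.5. The gene at rank 50, the proline isomerase Ppia, still had a mean of 759 FPKM. Of the 50 most abundant names, 3 were single-exon entries under 200 bases, among them AC135443.1, with 80 bases and 1747 ± 119 FPKM. FPKM divides by length, so that such short entries rank higher than their share of the reads.

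**Figure D1:**
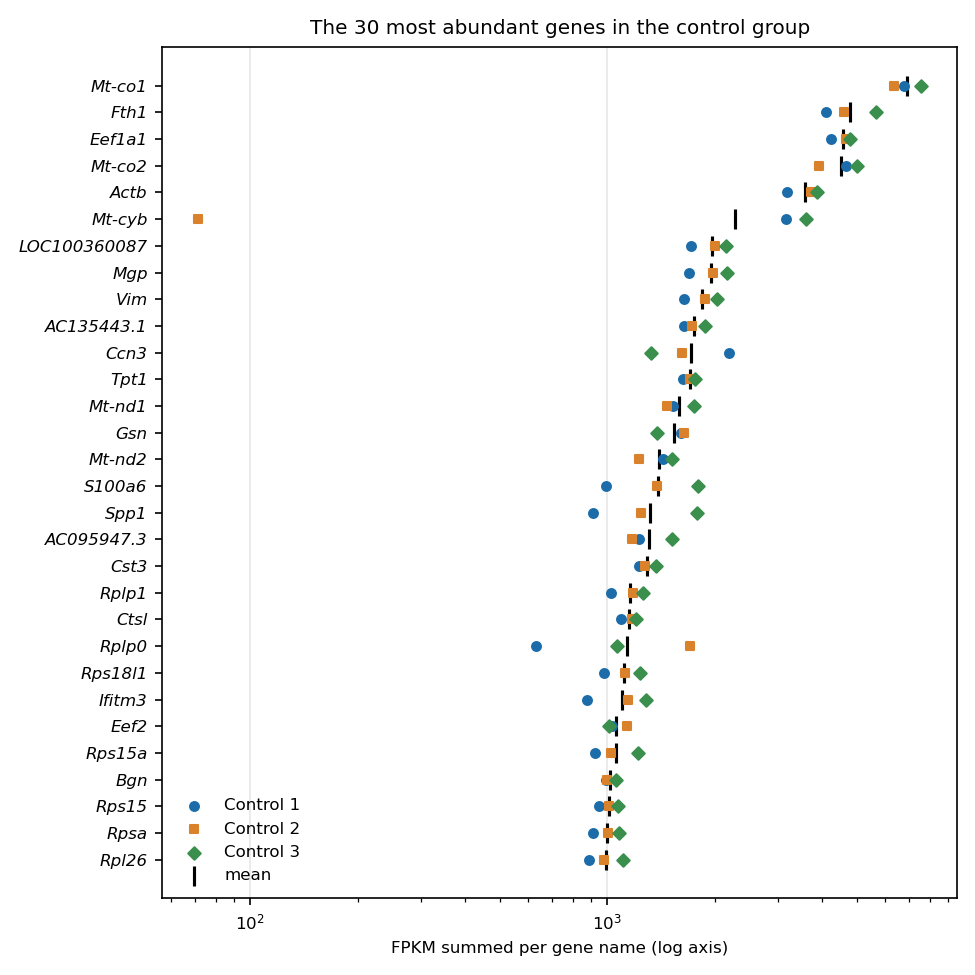
FPKM summed per gene name in Control 1, 2 and 3 (points, log axis) of the 30 genes with the highest mean (black bar), in order of the mean. The 3 libraries of most genes lie close together, while Control 2 stands far below the others for Mt-cyb (71.6 FPKM) and Control 1 below the others for Rplp0 (632 FPKM).

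Genes of secreted and matrix proteins stood beside these housekeeping genes. Mgp, matrix Gla protein, an inhibitor of calcification, had 1698, 1981 and 2159 FPKM. Ccn3, a matricellular protein of the CCN family, had 2198, 1617 and 1322 FPKM. The order of the libraries differed between them, since Control 1 was lowest for Mgp and highest for Ccn3. Spp1 (osteopontin) had 915, 1243 and 1788 FPKM. Bgn (biglycan) averaged 1017 ± 35.9 FPKM and Sparc, a collagen-binding glycoprotein, 949 ± 51.6 FPKM (SD, n = 3).

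The intermediate filament gene Vim (vimentin) had 1637, 1876 and 2026 FPKM, and Gsn (gelsolin), which severs actin filaments, had 1608, 1641 and 1374 FPKM. S100a6, a calcium-binding protein, had 993, 1379 and 1794 FPKM. For both S100a6 and Spp1, Control 1 was lowest and Control 3 highest. Cst3 (cystatin C, a cysteine protease inhibitor) averaged 1290 ± 75.1 FPKM and Ctsl (cathepsin L, a lysosomal cysteine protease) 1153 ± 56.5 FPKM. Tpt1, a tumour protein under translational control, averaged 1699 ± 63.4 FPKM, and Glul (glutamine synthetase) 971 ± 68.6 FPKM.

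By function, cytosolic ribosomal proteins were the largest defined class, with 7.40%, 8.06% and 8.59% of the summed FPKM in Control 1, 2 and 3. Their share rose to 9.97% ± 0.683 (SD, n = 3) with the sum per locus. Of the 90 genes in the class, 80 had a mean of at least 1 FPKM and 38 were among the 100 most abundant genes. Rplp1 (1156 ± 121 FPKM), Rplp0 (1135 ± 541 FPKM) and Rps18l1 (1113 ± 130 FPKM) led the class by name. Named transcripts of the mitochondrial genome held 4.34%, 3.26% and 4.45%, with Control 2 the lowest. Unnamed ones, not in these shares, summed to 949, 1902 and 996 FPKM, with Control 2 the highest.

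Cytoskeleton and contractile genes, led by Actb and Vim and including tubulins, held 3.12% ± 0.223 (SD, n = 3). Translation factors held 1.91% ± 0.0812 and iron, metal and redox genes 1.90% ± 0.205. Nuclear genes of oxidative phosphorylation held 1.65% ± 0.0996, with Atp5f1b, the catalytic beta subunit of ATP synthase, at 419 ± 13.2 FPKM. Matrix proteins other than collagens held 2.16% ± 0.00909 by name and 3.20% ± 0.137 by locus. Collagens held 0.389% ± 0.0627 by name and 0.690% ± 0.0814 by locus. Genes for matrix processing, among them Ctsl, Ctsd (cathepsin D) and Serpine2 (a protease inhibitor), held 1.20% ± 0.0724. Glycolysis genes held 0.538% ± 0.0332, led by Aldoa (aldolase A), with 635 ± 43.3 FPKM. The shares exclude genes outside the defined classes, which held 40.6% ± 0.334 by name.

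**Figure D2:**
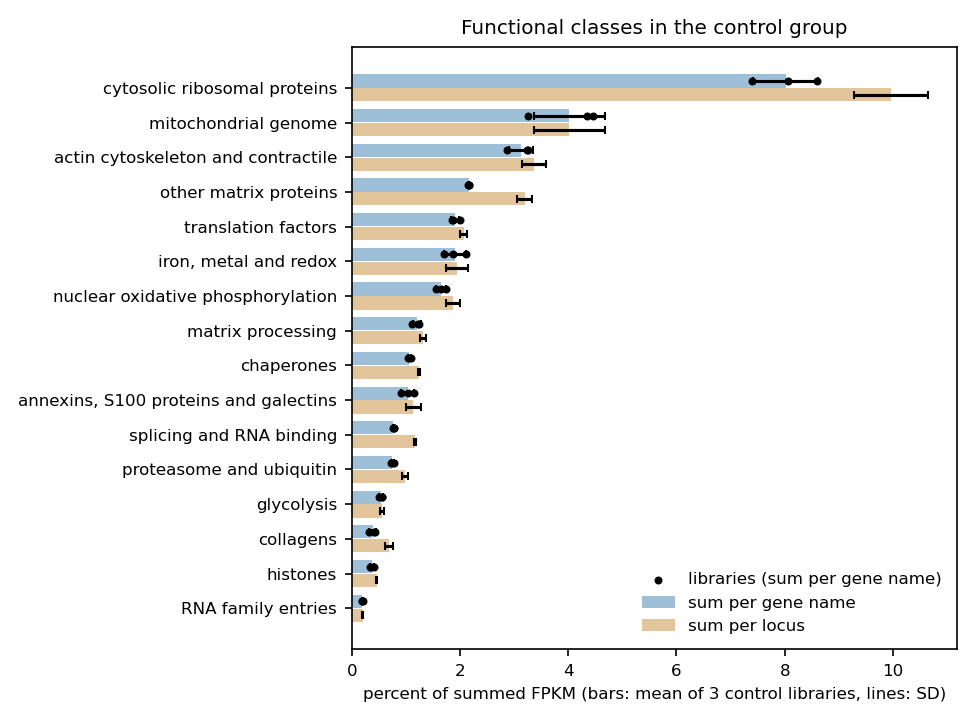
Percent of the summed FPKM taken by each defined functional class (bars, mean of 3 control libraries; lines, SD; points, the libraries by name), once with FPKM summed per gene name and once per locus. Cytosolic ribosomal proteins were the highest class by either sum, at 8.02% by name and 9.97% by locus.

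Messenger RNAs of ribosomal proteins and translation factors are known for a pyrimidine tract at their start, the TOP motif, through which their translation is regulated. RefSeq start windows of 20 bases (10 before the annotated start and 10 from it on, assembly GRCr8) were matched by symbol for 65 of the 100 most abundant genes, of which 63 lay on the same chromosome as in the deposited table. They are shown for 6 of these genes, chosen to include windows with the tract and windows without it. Capitals mark a C followed by 4 pyrimidines at any position of the window, also before the annotated start.
Eef1a1 (chr8:88225060-88225079, minus strand): ttggacgttCTTTTtcgcaa
Rplp1 (chr8:71290863-71290882, minus strand): cgcatgtgatCCTTTCctca
Rps15 (chr7:10068106-10068125, minus strand): acaccgCTTCCTTTTcccag
Rpl35 (chr3:43165912-43165931, minus strand): CTTCCTCTTTCTCTCgaacc
Rpsa (chr8:128728869-128728888, plus strand): ccgcgctaccctggaacggg
Rpl26 (chr10:54109682-54109701, plus strand): gtcaacttacagaaccggaa

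The first 4 windows hold such a tract and the last 2 do not. On the strand of the gene, a C followed by 4 pyrimidines was found in 36 of 52 windows (69.2%) of ribosomal protein and translation factor genes with a mean of at least 100 FPKM. It was found in 23.6% of all 27457 RefSeq windows and in 24.3% of those of genes with a mean of at least 1 FPKM. Of the 100 most abundant genes outside the class, 13 of 34 windows (38.2%) held it, among them that of Tpt1, named above as under translational control. On the opposite strand it was found in 9.62% and 28.8% of the class and of all windows. Overlapping matches were counted once per window.

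The search was made in 3 versions, and the shares depended on the letters. CTTTC or CTTCC, the pair searched at first, was found in 22 of the 52 windows (42.3%) and in 5.81% of all windows. With CTTTT and CCTTT added, which was done after windows of Eef1a1, Rpl13 and Rplp1 had been read, the shares were 26 of 52 windows of the class and 8.54% of all windows, so that this version was fitted to members it counts. The C with 4 pyrimidines follows the letters of the textbook form, but its position in the window was left free. It was run last, with the other results known. TATAA within the 50 bases before the start was found in 10 of 52 windows (19.2%) and in 4.55% of all. Of the 100 most abundant genes outside the class, 5 of 34 (14.7%) had TATAA, so that this share was not particular to the class. In the start windows of these genes, the first pair was found in 0 of 34 and the widened set in 3 of 34. A match is a description of letters and no test was made.

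The labelled cell type was then checked against marker genes, in lists chosen with earlier results of these data known. Of 26 endothelial markers, 25 were measured, and 5 had a mean of at least 1 FPKM by name, 6 by locus. No endothelial marker reached 10 FPKM by name, and 7 were listed at 0 in all 3 libraries. The median was 0.103 FPKM, compared with 0.0533 FPKM over all gene names, of which 33.3% had a mean of at least 1 FPKM. Only 10 of the 25 genes lay in a locus with a transcript assembled from these reads. Pecam1 was not analysed here.

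Cdh5 (VE-cadherin) had 0.120, 0.275 and 0.177 FPKM in Control 1, 2 and 3, and Vwf had 0.0106, 0.0575 and 0.0970 FPKM. Kdr, the main VEGF receptor, had 0.729, 0.866 and 0.840 FPKM. Cldn5 (claudin 5) was listed at 0, 0.0328 and 0 FPKM. These 4 genes stayed under 1 FPKM in every control library. The highest endothelial markers were Cd34, a sialomucin also found on progenitors and fibroblasts, with 4.08 ± 2.42 FPKM, and Eng (endoglin), which was listed at 0, 9.67 and 0 FPKM. With unnamed transcripts that overlap its span on the same strand added, Eng had 12.1 to 13.01 FPKM, while Cdh5, Vwf and Kdr had the same values by every sum. Flt1, a VEGF receptor, had 2.41, 2.76 and 3.32 FPKM, and Clec14a, a C-type lectin, 2.08, 2.25 and 2.07 FPKM. The summed FPKM of the list was 10.2 to 26.04 in the control libraries and 8.28 to 26.8 in the 12 exposed libraries. Tie1, Erg, Robo4, Sox17, Emcn and Mmrn2 were listed at 0 by name and by locus.

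The list of blood-brain barrier genes was uneven. Bsg (basigin, a chaperone of lactate transporters) had 633, 675 and 616 FPKM, Itm2a, a membrane protein, 199 ± 3.54 FPKM, and Slc3a2, the heavy chain of amino acid transporters, 118 ± 4.36 FPKM. Slc2a1 had 18.1, 20.9 and 23.9 FPKM. These 4 genes are also expressed by many other cell types. Slco1c1, Slc38a5 and Lef1 were listed at 0, and 9 of 22 measured members had a mean of at least 1 FPKM by name, 13 by locus.

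Most fibroblast markers were high. Expression of these genes in other cell types was not examined. Of 18 members, 15 had a mean of at least 1 FPKM by name and 16 by locus, with a median of 71.6 FPKM by name and 139 FPKM by locus. Their summed FPKM was 4261 to 4569 in the control libraries. By name, Mgp led the list, with 1698 to 2159 FPKM of that sum, followed by Col3a1 and Fbln1 (fibulin 1, a matrix glycoprotein). Col3a1, the chain of type III collagen, had 631, 548 and 425 FPKM. Col1a1, a chain of type I collagen, had 440, 480 and 395 FPKM. Fn1 (fibronectin) had 216 ± 30.5 FPKM by name and 2387 ± 194 FPKM by locus. Pdgfra, the receptor that marks many fibroblasts, had 51.7, 52.6 and 52.0 FPKM, so that the 3 libraries were almost equal. Tcf21 was listed at 0 and Postn had a mean of 0.267 FPKM.

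Of 14 markers of meningeal and perivascular fibroblasts, 10 had a mean of at least 1 FPKM by name and 11 by locus. Besides Ccn3, they included Crabp2 (a retinoic acid-binding protein) with 129, 110 and 120 FPKM, the growth factor Igf2 with 116, 79.5 and 122 FPKM, and the forkhead factors Foxc2 with 52.8 ± 10.4 FPKM and Foxd1 with 31.1 ± 11.2 FPKM. Slc6a13 and Aldh1a2 were listed at 0 by either sum. Foxd1 and Foxc2 were highest in Control 1 and lowest in Control 3, as was Ccn3.

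Of 14 pericyte markers, 4 had a mean of at least 1 FPKM. Zic1, a zinc finger factor, had 127, 153 and 116 FPKM, Anpep (aminopeptidase N) 89.4 ± 5.28 FPKM, Cspg4 (NG2) 14.7 ± 1.43 FPKM, and Pdgfrb, the PDGF receptor beta, 13.8, 12.9 and 13.8 FPKM by name and 44.5 ± 2.90 FPKM by locus. Rgs5, a regulator of G-protein signalling abundant in pericytes, was listed at 0, 0.115 and 0 FPKM. Kcnj8, Abcc9 and Vtn were listed at 0. Of 10 smooth muscle markers, 4 had a mean of at least 1 FPKM, among them Myl9 (a myosin light chain) with 43.2 ± 2.60 FPKM and Tagln (transgelin) with 36.0 ± 7.91 FPKM. Acta2, smooth muscle actin, had 0.437, 0.563 and 0.576 FPKM.

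**Figure D3:**
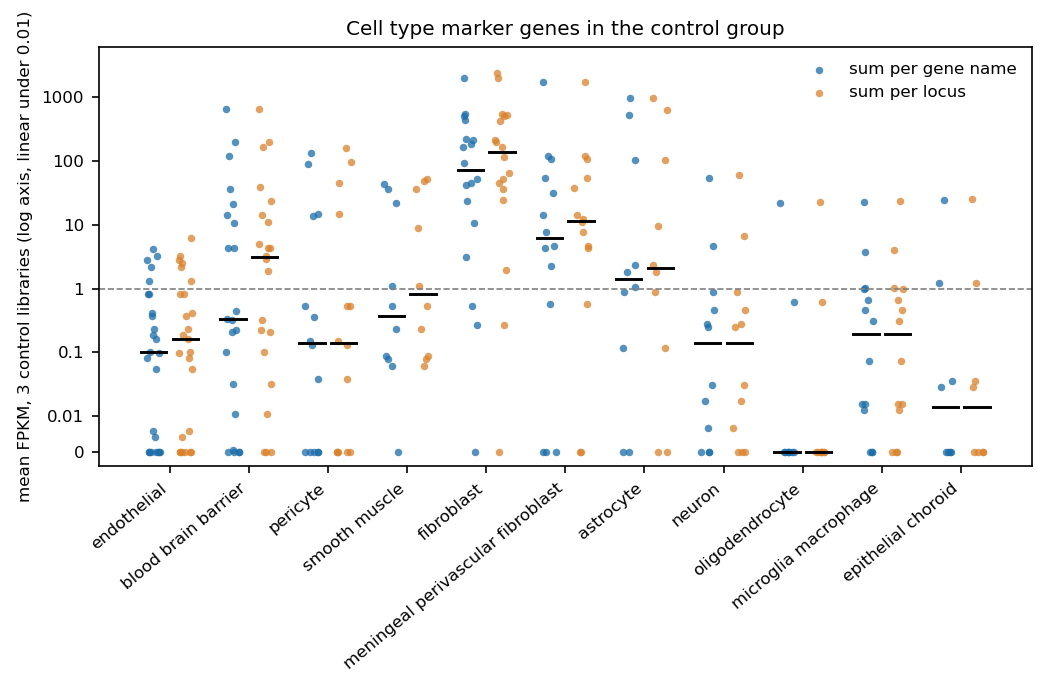
Mean FPKM of each marker gene in the 3 control libraries (points) by cell type list, with FPKM summed per gene name or per locus. Short bars are list medians, the dashed line is 1 FPKM and the axis is logarithmic above 0.01. The fibroblast median is 71.6 FPKM by name and the endothelial median 0.103 FPKM.

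Markers of other brain cells were mixed or near 0. Of the astrocyte markers, Glul, Gja1 (connexin 43) with 559, 614 and 407 FPKM and Aldoc (aldolase C) with 102 ± 12.1 FPKM were high, while Gfap had 0.128, 0.182 and 0.0477 FPKM and Aqp4 was listed at 0. Of the neuronal markers, Stmn2 (stathmin 2) had 38.1, 53.5 and 67.5 FPKM, and Rbfox3 was listed at 0. Of the oligodendrocyte markers, Cnp had 21.4 ± 1.33 FPKM, and Mbp, Mag, Mog and Mobp were listed at 0 by name. Tmem119 had 22.5 ± 1.32 FPKM, whereas Ptprc (CD45) and Cx3cr1 were listed at 0. The complement gene C1qc had 0.177, 2.79 and 0.113 FPKM, so that Control 2 was above the others. Of the epithelial markers, Krt8 had 23.9 ± 0.677 FPKM and Epcam was listed at 0. In these bulk samples, fewer cells of a type and less RNA per cell cannot be told apart, and no cell type is named here for the culture.

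Proliferation genes were expressed in the control group. Of 21 measured members, 19 had a mean of at least 1 FPKM by name and all 21 by locus. Pcna, the sliding clamp of DNA replication, had 90.8, 118 and 131 FPKM, and Cdk1, the kinase that drives entry into mitosis, had 35.0, 41.8 and 55.8 FPKM. Rrm1, a ribonucleotide reductase subunit, had 54.2 ± 6.48 FPKM. Control 1 was lowest and Control 3 highest for each of these genes. The summed FPKM of the list was 472, 623 and 673 in Control 1, 2 and 3, and 127 to 339 in the exposed libraries. The exposed range pools 12 h and 24 h, and such a gap was not particular to this list. In the exposed libraries, fibroblast sums were 1548 to 3579 FPKM, below control. The p53 list had 424 to 483 FPKM in control and 990 to 2474 FPKM in the exposed libraries.

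Genes of the p53 response were also measured without exposure, since 16 of 16 measured members had a mean of at least 1 FPKM. Ccng1 (cyclin G1) had 112, 103 and 116 FPKM and Phlda3, a p53 target that restrains Akt, 90.7 ± 3.92 FPKM. Cdkn1a (p21) had 51.8, 9.22 and 56.5 FPKM by name and 52.1, 31.6 and 56.8 FPKM by locus, with Control 2 the lowest by either sum. Among immediate early genes, 13 of 16 had a mean of at least 1 FPKM, led by name by Jund with 89.9 ± 4.37 FPKM and Ier3 with 87.0 ± 8.52 FPKM. Egr1, a zinc finger factor, had 56.7, 62.4 and 59.4 FPKM.

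Genes of store-operated calcium entry, by which calcium enters through Orai channels once Stim sensors report an emptied store, were at low to moderate levels. Stim1 had 16.4, 25.4 and 22.3 FPKM by name and a mean of 52.7 FPKM by locus, and Stim2 had 20.4, 17.1 and 14.6 FPKM. Orai3 had 5.96, 4.89 and 3.77 FPKM and Orai2 3.34, 3.32 and 3.13 FPKM. Orai1 was listed at 0 by name in all 3 libraries, while its locus sum was 10.8, 10.9 and 2.50 FPKM. By locus, Orai1 was above Orai2 and Orai3 in Control 1 and 2 and below both in Control 3. Atp2a2, the calcium pump that fills the store, had 48.1 ± 4.25 FPKM.

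Insulin-like growth factor binding proteins were abundant. Igfbp6 had 460, 387 and 355 FPKM and Igfbp2 had 388, 326 and 268 FPKM, while Igfbp3 had a mean of 0.0634 FPKM. Igfbp7 had 136, 45.7 and 199 FPKM by name and 137, 161 and 201 FPKM by locus, so that Control 2 was lowest by name only. Of 20 growth factor receptors, 10 had a mean of at least 1 FPKM by name and 18 by locus, led by Lrp1, an endocytic receptor, with 204 ± 37.4 FPKM and the TGF-beta receptors Tgfbr2 with 106 ± 11.1 FPKM and Tgfbr3 with 99.3 ± 5.2 FPKM. Among 28 growth factors by name, Igf2, Ccn1 (84.9 ± 14.7 FPKM) and Angpt2, a ligand of the Tie2 receptor (75.6 ± 9.53 FPKM), were highest. By locus, Ccn2, a matricellular protein, was highest, with 174, 211 and 227 FPKM. Of 15 integrin subunits, Itgb1, the beta 1 chain, was highest, with 317, 355 and 424 FPKM. Of 4 measured Y-linked genes, 2 had a mean of at least 1 FPKM and 2 were listed at 0 by name. Eif2s3y was the highest, with 10.3, 9.75 and 10.0 FPKM.

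The spread between control libraries depended on the sum used. For 5905 genes with a mean of at least 5 FPKM, the median coefficient of variation (CV, SD over mean) was 11.2% by name, and for 8640 genes it was 8.99% by locus. By name, it was 22.5% at 1 to 10 FPKM, 9.94% at 10 to 100 FPKM and 9.19% at 100 to 1000 FPKM. Of 6119 genes with a mean of at least 5 FPKM over all libraries, 16.5% differed by more than 2-fold between the lowest and the highest control library, compared with 4.35% of 8898 genes by locus. Pearson's r between 2 control libraries, across genes on the log2 scale, was 0.893 to 0.897 by name and 0.963 to 0.964 by locus, and genes are not independent replicates. In the exposed groups, r was 0.852 to 0.893 by name and 0.939 to 0.967 by locus.

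**Figure D4:**
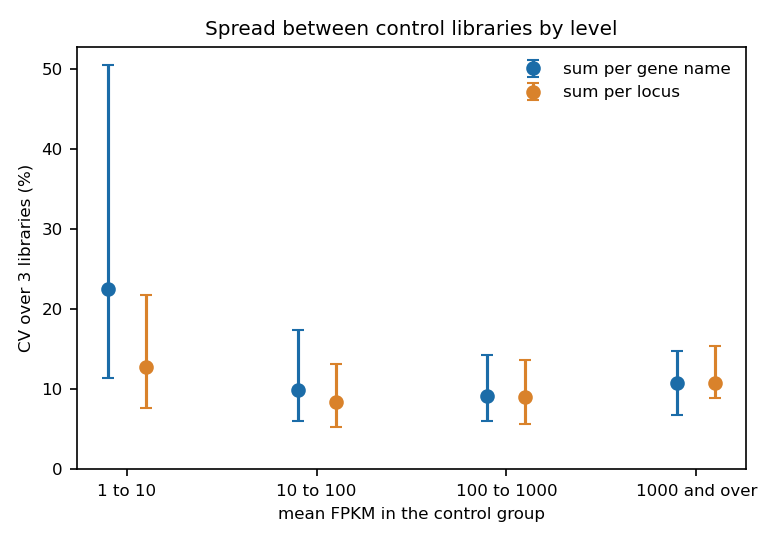
Coefficient of variation over the 3 control libraries (points, median over genes; lines, lower to upper quartile) by the mean FPKM of the gene, with FPKM summed per gene name or per locus. The median by name is 22.5% at 1 to 10 FPKM and 9.94% at 10 to 100 FPKM, and the difference between the sums is widest for the lowest genes.

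Several of the most variable genes had a lower CV by locus than by name. By locus, the CV was still 56.2% for Rpl29 and 44.3% for Bmp6. Whether reads moved between named and unnamed transcripts was not tested. Rpl29, a ribosomal protein gene, was listed at 0, 0 and 946 FPKM by name and at 340, 447 and 949 FPKM by locus. Eif4g2, a translation factor, had 0.363, 142 and 3.26 FPKM by name and 133, 145 and 137 FPKM by locus. Ccdc80, a matrix protein, had 73.7, 3.93 and 2.84 FPKM by name and 73.8, 73.2 and 82.7 FPKM by locus. Bmp6, a ligand of the BMP family, had 124, 0.366 and 8.65 FPKM by name and 243, 150 and 99.7 FPKM by locus. Of the 10 genes with the highest CV among those with a mean of at least 20 FPKM, 6 had less than 50% of that CV by locus.

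Other highly variable genes had the same values by locus. Mt-nd4, a subunit of respiratory complex I, had 0.0694, 242 and 0.0667 FPKM by either sum. The locus sum gave almost none of the unnamed mitochondrial FPKM to a name, and the mitochondrial share was 4.02% by either sum. Unnamed mitochondrial transcripts summed to 949, 1902 and 996 FPKM in Control 1, 2 and 3. Whether they held reads of Mt-nd4 was not tested. Chchd2, a mitochondrial protein, had 68.5, 3.31 and 2.34 FPKM by either sum. Mt-cyb (cytochrome b) had 3167, 71.6 and 3602 FPKM, and an unnamed transcript that overlaps it on the same strand had 438, 1477 and 470 FPKM. The sum of all mitochondrial transcripts was 20257, 16596 and 22225 FPKM in Control 1, 2 and 3.

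At the other end, Cers2 (a ceramide synthase) had 77.4, 77.5 and 77.3 FPKM and Rpn1 (a subunit of the oligosaccharyltransferase) 159, 159 and 159 FPKM. Pcyt1a, Car13 and Crtc2 were the other genes with the lowest CV, at 0.170% to 0.291%. Across the 100 most abundant genes, Control 3 had the highest value for 80 and Control 1 the lowest for 66. Of the 59 ribosomal protein genes with a mean of at least 100 FPKM, Control 3 was highest for 52 and Control 1 lowest for 42. The summed FPKM of the libraries was 444623, 450638 and 476629 in the same order, and its part in this pattern was not tested.

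The control group was then set against each exposed group with limma on log2(FPKM + 1), over 24797 features with a mean of at least 0.5 FPKM. A call needed a change of 1.5-fold or more and a p under 0.05 once adjusted by Benjamini and Hochberg. In the groups collected at 12 h, 7 of the 100 most abundant control genes were called with 5 Gy, compared with 7.29% of all features, and 5 with 20 Gy, compared with 6.20%. In the groups collected at 24 h, 28 were called with 5 Gy, compared with 34.2% of all features, and 26 with 20 Gy, compared with 33.9%. At 12 h the shares were near that of all features. The 4 comparisons share the control libraries.

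Nearly all of these calls were lower than control, namely 7 of 7, 5 of 5, 27 of 28 and 26 of 26 in the same order. Over all features, those called lower were 3.58%, 2.75%, 17.2% and 19.4%, and those called higher were 3.71%, 3.46%, 17.1% and 14.5%. Since the genes were ranked on the control values that enter each comparison, the ranking favours falls, and the direction is no result. When the 100 genes with the highest mean over all 15 libraries were taken, 2 were higher and 3 lower at 12 h after each dose, 7 higher and 17 lower 24 h after 5 Gy, and 6 higher and 16 lower 24 h after 20 Gy. When the 100 highest genes of the exposed group were taken, 13 were higher and 9 lower 24 h after 5 Gy, and 15 were higher and 8 lower 24 h after 20 Gy.

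**Figure D5:**
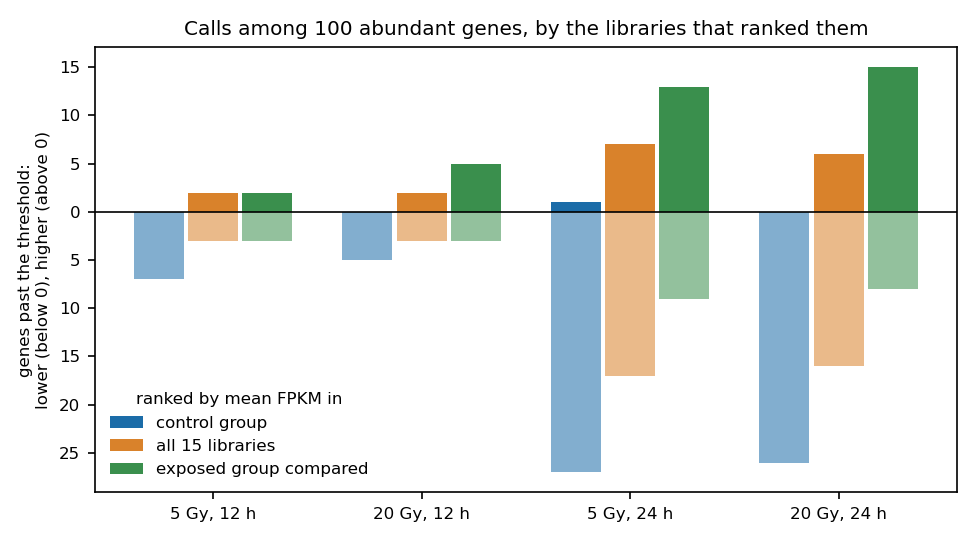
Number of genes past the threshold in each comparison with the control group, higher (bars above 0) or lower (bars below 0), among the 100 genes with the highest mean FPKM in the control group, in all 15 libraries or in the exposed group compared. At 24 h after 20 Gy, 0 were higher and 26 lower with the control ranking, and 15 were higher and 8 lower with the ranking of the exposed group.

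Single genes of the ranking are given here as description. They were picked among called genes whose libraries do not overlap with the control group, so that neither separation nor direction is a result. Their p-values rest on the same control values that ranked them. Actb had 1846, 1659 and 1517 FPKM 12 h after 5 Gy, all below the control libraries (log2 fold change -1.10, SE 0.114, limma adjusted p = 0.000131). Col3a1 had 32.8, 23.5 and 24.5 FPKM 24 h after 5 Gy (log2 fold change -4.26, SE 0.220, limma adjusted p = 6.98e-08) and 48.2, 32.5 and 29.1 FPKM 24 h after 20 Gy. At 12 h after 5 Gy, Col3a1 had 490, 501 and 634 FPKM and overlapped with the control group. H3f3a, a variant of histone H3, had 127, 135 and 122 FPKM 24 h after 5 Gy, compared with a mean of 697 FPKM in the control group.

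Spp1 had 126, 422 and 387 FPKM 24 h after 20 Gy (log2 fold change -2.20, SE 0.555, limma adjusted p = 0.0069), below every control library, as the choice required. Slc38a2, an amino acid transporter, was the only gene of the control ranking called higher, with 1126, 1053 and 760 FPKM 24 h after 5 Gy and a control mean of 546 FPKM (log2 fold change 0.83, SE 0.227, limma adjusted p = 0.0111). Rpl23a was listed at 0, 0 and 745 FPKM 24 h after 5 Gy and Mt-nd2 at 793, 0 and 0 FPKM 24 h after 20 Gy. Values of 0 for such genes can be failed estimates, so no fold is given.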

How the data were processed

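RNA was poly-A selected, and libraries of 15 cultures (5 groups of 3) were sequenced with reads of 150 bases. Per the labels, the authors aligned reads with HISAT2, used samtools 1.9 and assembled transcripts with StringTie 1.3.5 on Rnor_6.0. They deposited 1 table of FPKM per transcript (85322 transcripts, 40272 loci), which was used without rescaling. Counts were not analysed here.

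FPKM was summed per gene name, and unnamed transcripts per locus. As an alternative, 29433 unnamed transcripts were given to the 1 name of their locus. Features with a mean of at least 0.5 FPKM over the 15 libraries were tested two-sided on log2(FPKM + 1) with limma 3.58.1 (R 4.3.3), with 1 mean per group and a variance trend. On this scale the change of low genes is understated. Descriptions used Python 3.11.15 with pandas 2.3.3. The limma step was tested on simulated data.

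Named genes are the 50 most abundant, the leading members of each list and class with the genes that define a cell type, the Orai and Stim genes, those with the 10 highest and 5 lowest CVs at a mean of at least 20 FPKM, and of the top 100 the largest changes whose groups do not overlap. Members and lists were chosen with earlier results of these data known. Of 309 list entries, 302 were matched, 4 of them by an older symbol. RefSeq start windows (GRCr8) came from 33469 promoter entries, the first per symbol.

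Alternatives covered the pseudocount, filters, scaling, the samples fitted, the trend, a replicate block, each library left out and the way of summing.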

Additional observations from a re-analysis of the deposited data

How the results depend on the processing

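Leaving out 1 library at a time gave 1311 to 1581 called features for 5 Gy at 12 h, 1103 to 1345 for 20 Gy at 12 h, 7755 to 8029 for 5 Gy at 24 h and 7607 to 8318 for 20 Gy at 24 h. Of the 100 most abundant control genes it gave 4 to 7, 4 to 5, 24 to 28 and 23 to 28 calls in the same order, and the count of 4 for 5 Gy at 12 h came without Control 3, against 7 with it. Between 97 and 99 of the 100 genes were kept, and 4 to 5 endothelial and 15 fibroblast markers had a mean of at least 1 FPKM. The median CV was 7.67% to 10.9%. These CVs rest on fewer libraries and cannot be set against the 11.2% of the whole control group. Ribosomal proteins held 7.73% to 8.33% and collagens 0.369% to 0.425%. By locus, 89 of the 100 genes were kept, and Fn1, Rps2 and Rpl12 were among those that entered. By that sum, ribosomal proteins held 9.97% and collagens 0.690%. With the 100 highest genes of the exposed group, a ranking chosen after seeing the data, 8 were called 12 h after 20 Gy against 5. Of 21 changes named for the top 100, 16 kept their call in every alternative. Tubb5, Mgp, Rpl23a, Mt-nd2 and Fstl1 each lost it in at least 1, and the cause was not tested. None reversed.

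No pairing of the libraries by replicate number was seen, though such a check cannot show that none exists. Over 30 pairs with the same number, deviations correlated at -0.092 to 0.112, and control libraries correlated best with their own number in 1 of 12 cases. With the replicate number as a block, 1691, 1430, 8441 and 8318 features were called, in the order above, and the top 100 had 7, 5, 28 and 26 calls. Low FPKM and values listed at 0 limit what is said of single genes, since unnamed transcripts can hold their reads.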
